A study of Arabidopsis thaliana with 12 samples.

Results

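The 10 genes described here act in cell division in Arabidopsis thaliana, from the entry into mitosis to the cell plate. They were listed by name and gene ID, but earlier results of these data were known when the list was made. They are HINKEL (AT1G18370), TES (AT3G43210), PLE (AT5G51600) and KNOLLE (AT1G08560) of the phragmoplast and cell plate, the Aurora kinases AUR1 (AT4G32830) and AUR2 (AT2G25880), and the B-type cyclin-dependent kinases CDKB1;1 (AT3G54180), CDKB1;2 (AT2G38620), CDKB2;1 (AT1G76540) and CDKB2;2 (AT1G20930). They are 10 of the 32548 genes in the deposited table, and all 10 were expressed highly enough to be tested. RNA was sequenced from 12 seedling samples harvested at 20 days, 3 from each of 4 genotypes. These were wild type, gte4-/-, eml1-/-eml2-/- and a triple mutant that combines the mutations, gte4-/-eml1-/-eml2-/-. No treatment was given; all plants spent 12 days on MS plates and then grew in soil, with 16 h of light and 8 h of dark at 22 °C. GTE4 encodes a bromodomain protein, and EMSY-like proteins are the products of EML1 and EML2. In the series title they form 1 complex that reads histone acetylation and H3K4 trimethylation, so the comparisons ask how transcripts differ when either part, or both, is mutated.

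Plant cells divide by building a new wall from the inside outwards. A microtubule array called the phragmoplast guides vesicles to the middle of the cell, where they fuse into the cell plate. Aurora kinases act on the spindle and on the orientation of division, and B-type cyclin-dependent kinases, which are particular to plants and algae, drive cells from G2 into mitosis. Many genes of this kind are transcribed around G2 and M phase under MYB3R transcription factors, which bind a promoter element with the core AACGG.

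Values are the normalized read counts as the authors deposited them, given as mean ± SD with n = 3. Log2 changes were fitted with limma after 1 was added to each value, with adjustment by the Benjamini-Hochberg method over the 22315 genes tested, and a gene was called at an adjusted p under 0.05. The normalized totals ran from 31990484 to 34322625 per sample and are not sequencing depths, which are unknown. The labels do not say whether the replicates are separate plants, pools of plants or repeated libraries, nor which alleles the mutants carry, so a p-value here covers just the spread among these 12 samples, which may be technical. GTE4 stood at 1703 ± 73.6 in wild type, 74.96 ± 21 in gte4 and 89.9 ± 9.95 in the triple mutant. In the line labelled eml1 eml2 GTE4 was at 2178 ± 38.2. EML2 stood at 569 ± 37.4 in wild type, 108 ± 11.7 in the line labelled eml1 eml2 and 30.7 ± 1.74 in the triple mutant. The triple mutant and the eml1 eml2 line therefore differ in EML2 transcript as well as in GTE4. This holds for their direct comparison and for the interaction. EML1 was not reduced, at 928 ± 69.6 in wild type, 942 ± 55.3 in the line labelled eml1 eml2 and 1004 ± 35.7 in the triple mutant. The genotype names below are therefore those of the labels, and for EML1 a count over the whole gene does not test the mutation.

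The sequence just before the annotated transcript start is shown for the 4 phragmoplast and cell plate genes, because HINKEL and PLE had the largest log2 changes of the 10 genes in the eml1 eml2 line and in the triple mutant, while their relative in function TES was not called against wild type. CDKB1;2 is shown beside them as a gene whose mean lay between 198 and 212 in all 4 genotypes. Each run is 300 bases, 5′ to 3′ on the gene's own strand, from RefSeq TAIR10.1, and capitals mark AACGG or its reverse complement CCGTT.
HINKEL, chr1:6324379-6324678, minus strand: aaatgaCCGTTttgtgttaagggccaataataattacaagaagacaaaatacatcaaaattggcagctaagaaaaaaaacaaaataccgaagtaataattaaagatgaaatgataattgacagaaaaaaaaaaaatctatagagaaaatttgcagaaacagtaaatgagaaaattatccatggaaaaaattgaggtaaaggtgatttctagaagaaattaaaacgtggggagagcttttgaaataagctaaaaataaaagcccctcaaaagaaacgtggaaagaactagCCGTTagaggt
TES, chr3:15190486-15190785, plus strand: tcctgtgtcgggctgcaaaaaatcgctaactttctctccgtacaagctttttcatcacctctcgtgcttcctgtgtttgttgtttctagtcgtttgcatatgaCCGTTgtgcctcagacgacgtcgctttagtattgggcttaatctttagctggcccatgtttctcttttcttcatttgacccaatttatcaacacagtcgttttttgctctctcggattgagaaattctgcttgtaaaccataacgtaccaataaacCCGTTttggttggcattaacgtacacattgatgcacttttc
PLE, chr5:20964538-20964837, minus strand: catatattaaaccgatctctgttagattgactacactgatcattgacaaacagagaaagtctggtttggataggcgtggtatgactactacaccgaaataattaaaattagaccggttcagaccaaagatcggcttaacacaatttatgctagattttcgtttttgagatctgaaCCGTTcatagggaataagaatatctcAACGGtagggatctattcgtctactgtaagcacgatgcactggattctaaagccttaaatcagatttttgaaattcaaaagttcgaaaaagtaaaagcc
KNOLLE, chr1:2711001-2711300, minus strand: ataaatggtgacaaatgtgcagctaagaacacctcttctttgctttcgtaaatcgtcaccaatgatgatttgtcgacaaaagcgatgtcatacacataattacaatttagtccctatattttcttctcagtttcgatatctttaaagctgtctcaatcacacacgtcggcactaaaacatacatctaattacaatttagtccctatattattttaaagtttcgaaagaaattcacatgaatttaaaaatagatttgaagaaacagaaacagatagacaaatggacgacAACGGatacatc
CDKB1;2, chr2:16152173-16152472, plus strand: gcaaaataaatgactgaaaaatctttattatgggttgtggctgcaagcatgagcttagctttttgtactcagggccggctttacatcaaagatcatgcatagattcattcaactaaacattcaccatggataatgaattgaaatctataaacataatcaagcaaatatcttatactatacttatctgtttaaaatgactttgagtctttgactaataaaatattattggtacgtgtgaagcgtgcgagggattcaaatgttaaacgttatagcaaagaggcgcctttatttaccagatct

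AACGG, read on both strands, was present in this window in 7 of the 10 genes, against 6430 of 27443 promoters of the genome, or 23.43%. HINKEL, TES and PLE held 2 matches each, which 4.529% of all promoters did. The matches lay 294 and 11 bases before the start in HINKEL, 197 and 41 in TES, and 125 and 99 in PLE. KNOLLE had 1 match at 12 bases, AUR1 at 79, AUR2 at 6 and CDKB2;2 at 89. CDKB1;1, CDKB1;2 and CDKB2;1 had none, although in CDKB1;1 and CDKB2;1 the window runs into exons of the neighbouring gene for 213 and 194 bases. The E2F site TTTCCCGC was in none of the 10 windows, and in 189 promoters of the genome (0.6887%). A match describes these letters only. TES held 2 matches and was not called against wild type, and CDKB2;1 held none and was called in all 3 mutants.

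**Figure D1:**
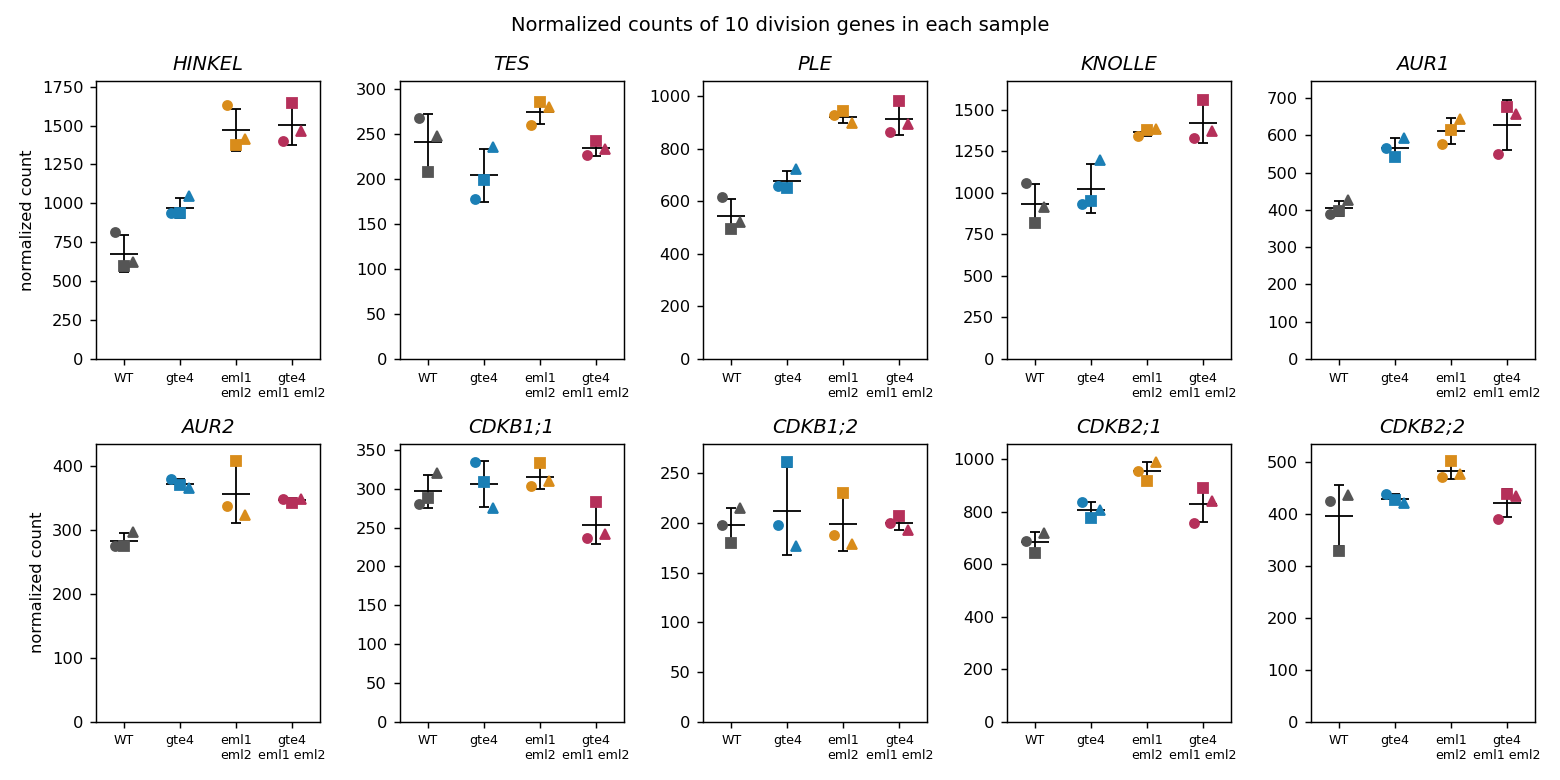
Normalized read count (vertical axis, from 0) of each of the 10 genes in wild type (WT) and the 3 mutants; circles, squares and triangles are replicates 1, 2 and 3, the long bar is the mean and the error bar the SD. HINKEL, PLE, AUR1, AUR2 and CDKB2;1 lie above every wild type sample in all 3 mutants, while both CDKB1 genes overlap wild type throughout.

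In gte4 against wild type, 5 of the 10 genes were higher and none was lower: HINKEL, PLE, both Aurora kinases and CDKB2;1. Over all genes tested, 12.1% were called higher and 13.8% lower. In the line labelled eml1 eml2, 7 of the 10 were higher and none lower, as KNOLLE and CDKB2;2 passed the test too, against 11.6% of all genes called higher and 12% lower. In the triple mutant 6 of the 10 were higher and none lower, KNOLLE among them but not CDKB2;2, against 15.4% of all genes called higher and 18.2% lower. For each of these calls all 3 mutant samples lay above all 3 wild type samples, as they did for 18.6%, 18.8% and 21.3% of all genes in the 3 comparisons. The median log2 change of the 10 genes was 0.19 in gte4, 0.40 in the eml1 eml2 line and 0.29 in the triple mutant, beside -0.0046, 0.0059 and 0.00097 for all genes tested. The same 3 wild type samples stand in all 3 comparisons, so the results are not independent of one another. In RNA from whole seedlings, a larger share of dividing cells and more of each transcript per dividing cell cannot be told apart.

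HINKEL changed most of the 10 genes. It encodes a kinesin, also known as NACK1, that activates a MAP kinase cascade at the phragmoplast so that the cell plate can widen. HINKEL stood at 814, 595 and 624 normalized counts in wild type replicates 1, 2 and 3. The counts were 935, 937 and 1048 in gte4 and 1629, 1375 and 1411 in the eml1 eml2 line, and 1400.01, 1647 and 1464 in the triple mutant. Every gte4 sample was above every wild type sample, and all 6 samples of the eml1 eml2 and triple mutants were above every gte4 sample. Its log2 change was 0.53 in gte4 (SE 0.109, adjusted p = 0.00299), 1.13 in the eml1 eml2 line (SE 0.109, adjusted p = 1.56e-05) and 1.16 in the triple mutant (SE 0.109, adjusted p = 3.76e-06). On the linear scale these are 1.45-fold, 2.19-fold and 2.23-fold.

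TES, the closest relative of HINKEL and known as NACK2, is required for cytokinesis after male meiosis. Its counts were 268, 208 and 248 in wild type, 178, 199 and 236 in gte4, 259.9, 286 and 279.8 in the eml1 eml2 line, and 226, 243 and 233 in the triple mutant. All 3 mutant groups overlapped wild type, with gte4 the lowest on average and eml1 eml2 the highest. The log2 change was -0.24 in gte4 (95% interval -0.49 to 0.01, adjusted p = 0.150), 0.20 in the eml1 eml2 line (-0.05 to 0.45, adjusted p = 0.258) and -0.04 in the triple mutant (-0.29 to 0.21, adjusted p = 0.848). Without gte4 replicate 3, TES was called lower in gte4 (log2 change -0.35, adjusted p = 0.0463), and over the 23 alternatives that p ran from 0.0463 to 0.456.

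HINKEL and TES differed in how far they moved relative to each other. Per kilobase of exon, HINKEL stood 2.90-fold above TES in wild type, 4.97-fold in gte4, 5.54-fold in the eml1 eml2 line and 6.65-fold in the triple mutant. As a log2 ratio within each sample this was 1.54 ± 0.140 in wild type and 2.31 ± 0.124, 2.47 ± 0.203 and 2.73 ± 0.0714 in the 3 mutants (SD, n = 3). The ratio in each mutant sample was above that in each wild type sample, and the two-sided exact permutation p was 0.1 in each case, the smallest that 3 samples against 3 can give (0.171 after adjustment over 12 such tests). The 2 transcripts align with 72.99% identity and share no run longer than 18 bases, far less than a 150-bp read.

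PLE encodes MAP65-3, a protein that crosslinks microtubules at the midline of the phragmoplast. Its counts were 615, 495 and 521 in wild type, 657, 651 and 722 in gte4, 926, 942 and 897 in the eml1 eml2 line, and 863, 982 and 894 in the triple mutant. The order of the groups was that of HINKEL: wild type lowest, gte4 between, and the eml1 eml2 and triple mutants highest and overlapping each other. The log2 change was 0.32 in gte4 (SE 0.0815, adjusted p = 0.00867), 0.77 in the eml1 eml2 line (adjusted p = 1.09e-05) and 0.75 in the triple mutant (adjusted p = 4.10e-06). HINKEL and PLE share no exon bases with another annotated gene and kept these 3 calls under all 23 alternatives.

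KNOLLE encodes the syntaxin that is made in dividing cells and fuses vesicles into the cell plate. It stood at 1058, 821 and 915 counts in wild type, 931, 950.5 and 1194 in gte4, 1339.6, 1376 and 1380.4 in the eml1 eml2 line, and 1331, 1555 and 1369 in the triple mutant. The gte4 samples overlapped wild type, while the eml1 eml2 and triple mutant samples were above every sample of both. KNOLLE rose by 0.56 on the log2 scale in the eml1 eml2 line (SE 0.102, adjusted p = 0.00135) and 0.61 in triple mutants (adjusted p = 0.000367). In gte4 the change was 0.14 (95% interval -0.08 to 0.35, adjusted p = 0.366). Of its exon bases, 33.48% lie opposite AT1G08550, which had more reads (5917 ± 305 in wild type) and fell by 0.28 on the log2 scale in gte4 (adjusted p = 0.00208) and by 0.16 in triple mutants (adjusted p = 0.0394). Whether the counts used strand is not given in the sources used here, so reads of the 2 genes cannot be told apart there.

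AUR1 and AUR2 are the alpha-class Aurora kinases, which act redundantly at the spindle and in formative divisions. AUR1 stood at 390.2, 396 and 427 counts in wild type, 565, 542 and 592 in gte4, 576, 614 and 644 in the eml1 eml2 line, and 551, 675 and 657 in the triple mutant. All 9 mutant samples were above the highest wild type sample, and the 3 mutants overlapped one another. The log2 change of AUR1 was 0.49 in gte4 (SE 0.0842, adjusted p = 0.000596), 0.59 in the eml1 eml2 line (adjusted p = 0.000138) and 0.63 in the triple mutant (adjusted p = 3.23e-05).

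AUR2 stood at 275.4, 275.3 and 297 counts in wild type, 380.4, 371 and 366 in gte4, 338, 407 and 323 in the eml1 eml2 line, and 349, 343 and 348 in the triple mutant. Here gte4 had the highest mean, and again all 9 mutant samples exceeded all 3 wild type samples. Its log2 change was 0.40 in gte4 (SE 0.0910, adjusted p = 0.00423), 0.33 in the eml1 eml2 line (adjusted p = 0.0155) and 0.30 in the triple mutant (adjusted p = 0.0189). The eml1 eml2 call was lost without wild type replicate 2 (adjusted p = 0.0541) or without eml1 eml2 replicate 2 (adjusted p = 0.0956), and its p ran from 0.0106 to 0.0956 over the alternatives. The triple mutant call was lost without wild type replicate 2 (adjusted p = 0.0603, range 0.0104 to 0.0603). Per kilobase of exon, AUR1 stood above AUR2 by a log2 ratio of 1.17 ± 0.0129 in wild type and 1.26 ± 0.0791, 1.44 ± 0.202 and 1.51 ± 0.169 in gte4, eml1 eml2 and the triple mutant, with the same exact permutation p of 0.1 for each. AUR1 and AUR2 transcripts align with 84.91% identity and share no run longer than 32 bases. On the opposite strand, AUR2 shares 36.86% of its exon bases with AT2G25890, which is listed at 4.16e-17 in all 12 samples, or 0 within rounding, and AUR1 shares 19.21% with AT4G32840, which fell by 0.34 in gte4 (adjusted p = 0.0159).

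Among the 4 B-type kinases the calls fell on 1 class. The CDKB2 genes, whose products act from G2 into mitosis and in the shoot meristem, were higher in at least 1 mutant, and no CDKB1 gene was called in any. The difference between the classes was not tested. CDKB2;1 stood at 687, 642 and 719 counts in wild type, 837, 776 and 807 in gte4, 953, 915 and 991 in the eml1 eml2 line, and 756, 891 and 842 in the triple mutant. All 9 mutant samples were above wild type, the eml1 eml2 samples were above every other, and the triple mutant overlapped gte4. The log2 change of CDKB2;1 was 0.24 in gte4 (SE 0.0719, adjusted p = 0.0208), 0.48 in the eml1 eml2 line (adjusted p = 0.000203) and 0.28 in the triple mutant (adjusted p = 0.00657). Its gte4 call was lost without wild type replicate 2 (adjusted p = 0.0900), without gte4 replicate 1 (adjusted p = 0.0801) and with library totals made equal (adjusted p = 0.0795), with a range of 0.0112 to 0.0900.

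CDKB2;2 stood at 425, 329 and 436 counts in wild type, 439.5, 427 and 421 in gte4, 471, 501 and 477 in the eml1 eml2 line, and 391, 439 and 434 in the triple mutant. Only the eml1 eml2 samples were all above wild type, in which replicate 2 was far below the other samples. The log2 change was 0.12 in gte4 (95% interval -0.08 to 0.33, adjusted p = 0.394), 0.29 in the eml1 eml2 line (0.09 to 0.50, adjusted p = 0.0372) and 0.10 in the triple mutant (-0.11 to 0.30, adjusted p = 0.489). The eml1 eml2 call held in 16 of 23 alternatives. It was lost without wild type replicate 2 (log2 change 0.17, adjusted p = 0.206) and without eml1 eml2 replicate 1, 2 or 3 (adjusted p = 0.0673, 0.117 and 0.0689). It was also lost with equal library totals (adjusted p = 0.0526), without trend and robust moderation (adjusted p = 0.0678) and in a fit of the 2 genotypes alone (adjusted p = 0.0798), and its p ran from 0.00737 to 0.206.

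The CDKB1 genes, known for roles in the G2 to M transition and in stomatal divisions, were not called against wild type with all samples. CDKB1;1 stood at 281, 289 and 321 counts in wild type, 334, 309 and 275 in gte4, 304, 333 and 309.5 in the eml1 eml2 line, and 237, 283 and 242 in the triple mutant. All 3 mutants overlapped wild type, with the triple mutant lowest. Its log2 change was 0.04 in gte4 (95% interval -0.17 to 0.26), 0.09 in the eml1 eml2 line (-0.13 to 0.30) and -0.23 in the triple mutant (-0.44 to -0.01, adjusted p = 0.0961), the last called lower without triple mutant replicate 2 (log2 change -0.31, adjusted p = 0.0458, range 0.0458 to 0.326). CDKB1;2 averaged 198 ± 18 in wild type, 212 ± 44.1 in gte4, 199 ± 27.1 in the eml1 eml2 line and 199.9 ± 7.37 in the triple mutant. Its intervals were the widest of the 10 genes, from -0.21 to 0.38 in gte4, -0.29 to 0.30 in the eml1 eml2 line and -0.27 to 0.32 in the triple mutant. Changes within these bounds are not excluded. The longest run shared by the CDKB1 transcripts is 41 bases and by the CDKB2 transcripts 29 bases, both far shorter than a 150-bp read. Their identities are 87.08% and 86.94%, and how reads that match both in part were counted is not given in the sources used here. On the opposite strand, CDKB1;2 shares 18.34% of its exon bases with AT2G38630 and CDKB2;2 13.78% with AT1G20925. For CDKB1;1 and CDKB2;1 the share is 5.149% with AT3G54190 and 3.219% with AT1G76530. The log2 change of AT2G38630 was -0.30 in gte4 (limma adjusted p = 0.00712) and -0.34 in the triple mutant (limma adjusted p = 0.00233). Whether reads of these genes entered the CDKB counts is not known.

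**Figure D2:**
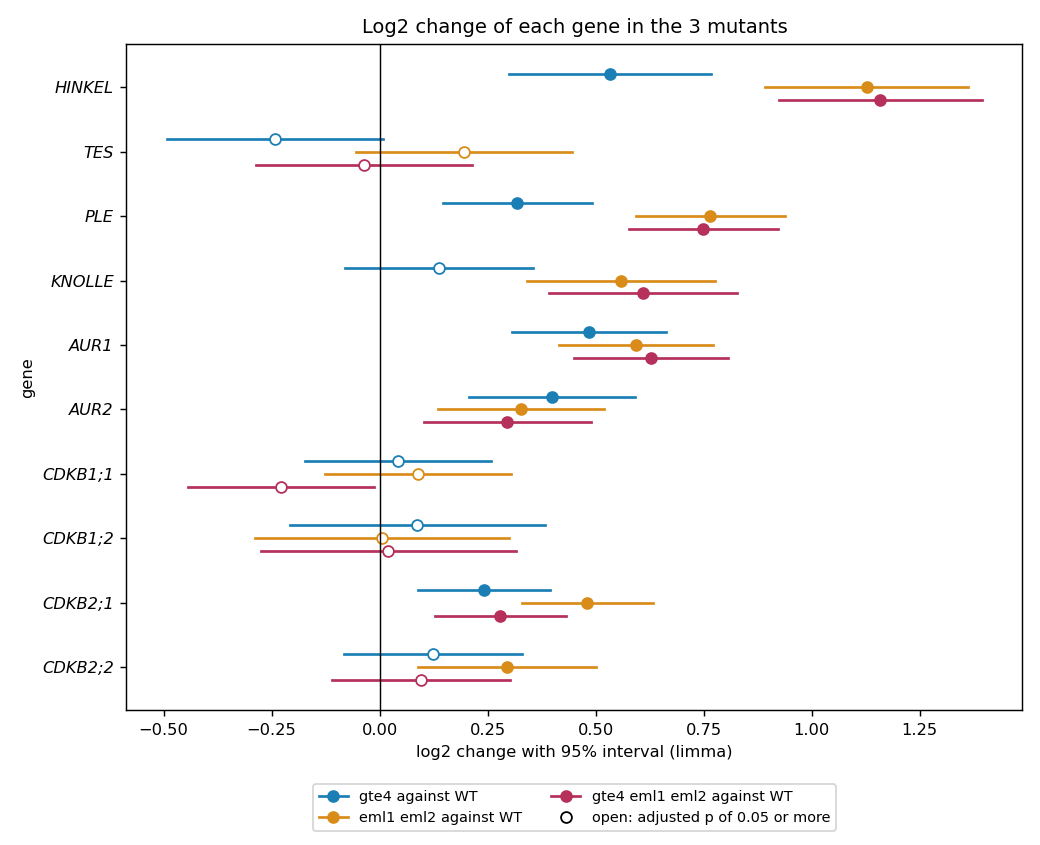
Log2 change of each gene (horizontal axis) with its 95% interval from limma, in gte4, eml1 eml2 and the triple mutant against wild type (WT); filled points passed an adjusted p of 0.05. HINKEL reaches 1.13 and 1.16 in the eml1 eml2 and triple mutants and 0.53 in gte4, whereas the intervals of CDKB1;2 span 0 in all 3.

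HINKEL, PLE, AUR1, AUR2 and CDKB2;1 were called higher in all 3 mutants, as were 1211 genes of the table (5.43%). Per kilobase of exon, which adjusts for gene length, KNOLLE was the most abundant of the 10 in every genotype, at 672 in wild type, and TES the least, at 66.9. Apart from HINKEL, TES and PLE, each gene shares exon bases with a gene on the opposite strand, 33.48% in KNOLLE. How reads there were counted is not given, so levels of different genes compare only roughly. CDKB2;1 followed KNOLLE in wild type at 499.6 and stood apart from its neighbours in the order. CDKB2;2 at 285 and AUR1 at 268 came next with overlapping ranges, then CDKB1;1 at 215, PLE at 199 and HINKEL at 195, each overlapping the next. CDKB1;2 at 129 and AUR2 at 119 also overlapped. HINKEL moved from the seventh place in wild type to the third in the eml1 eml2 line and the triple mutant, at 424 and 433 per kilobase, where its range overlapped that of AUR1 at 405 and 416.

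**Figure D3:**
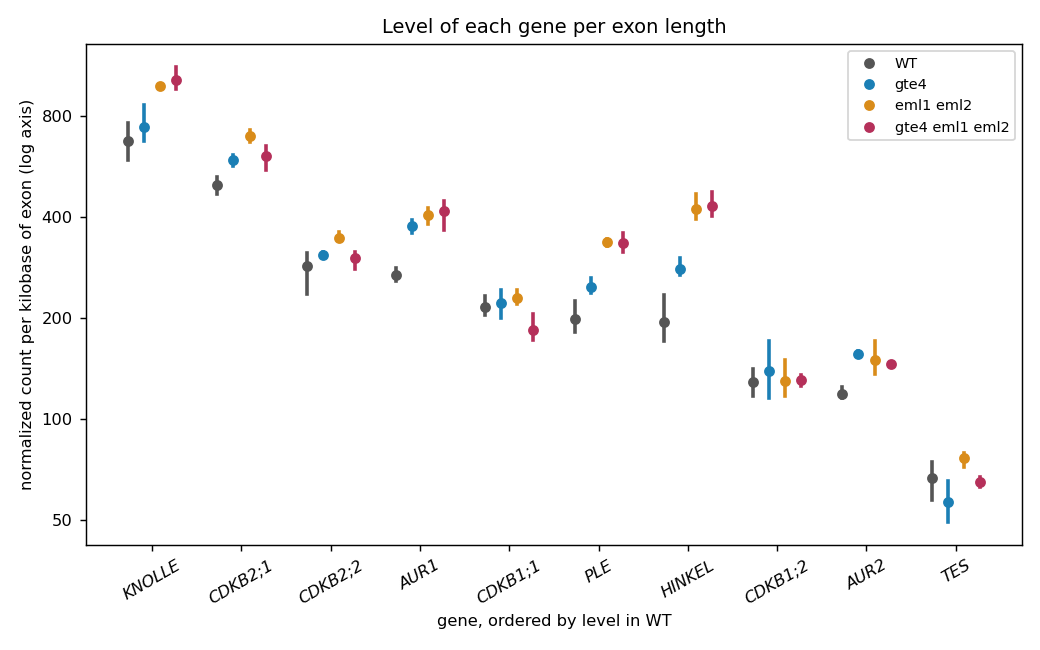
Normalized read count per kilobase of exon (vertical log axis) for the 10 genes, ordered by their level in wild type (WT); points are means of 3 samples and lines run from the lowest to the highest sample. KNOLLE is highest and TES lowest in all 4 genotypes, and HINKEL climbs from 195 in wild type to 424 in the eml1 eml2 line and 433 in the triple mutant.

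Adding the eml1 eml2 mutations to gte4 raised 3 of the 10 genes, all of the phragmoplast and cell plate, where 4.47% of all genes were called higher and 5.08% lower. HINKEL was higher in the triple mutant than in gte4 by 0.63 on the log2 scale (SE 0.109, adjusted p = 0.00666), PLE by 0.43 (SE 0.0815, adjusted p = 0.00666) and KNOLLE by 0.47 (SE 0.102, adjusted p = 0.0135). All 3 triple mutant samples were above all 3 gte4 samples for these 3 genes, as for 14.3% of all genes. HINKEL and PLE kept the call under all 23 alternatives. KNOLLE lost it without gte4 replicate 1 (adjusted p = 0.0695), gte4 replicate 2 (adjusted p = 0.0801) or triple mutant replicate 2 (adjusted p = 0.0690) and without trend and robust moderation (adjusted p = 0.0636), within a range of 0.00150 to 0.0801. AUR1 differed by 0.14 (95% interval -0.04 to 0.32), AUR2 by -0.10 (-0.30 to 0.09), CDKB2;1 by 0.04 (-0.11 to 0.19) and CDKB1;1 by -0.27 (-0.49 to -0.05, adjusted p = 0.103). CDKB1;1 was called lower without gte4 replicate 3 (log2 change -0.34, adjusted p = 0.0458, range 0.0458 to 0.367).

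Adding gte4 to eml1 eml2 changed none of the 10 genes by limma at an adjusted p of 0.05, and 2 of them had an unadjusted p under 0.05, as did 13.1% of all genes. These were CDKB1;1, lower by -0.32 (95% interval -0.53 to -0.10, adjusted p = 0.144), and CDKB2;1, lower by -0.20 (-0.35 to -0.05, adjusted p = 0.197). All 3 triple mutant samples lay below all 3 eml1 eml2 samples for these and for TES and CDKB2;2, 4 genes in all, where 12.7% of all genes did so. The 3 genes that separated the triple mutant from gte4 had intervals around 0: HINKEL differed by 0.03 (-0.20 to 0.27), PLE by -0.02 (-0.19 to 0.16) and KNOLLE by 0.05 (-0.17 to 0.27). Few genes of any kind were called here, 370 of 22315 (1.66%), or 682 in a fit with a replicate block.

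Set directly against eml1 eml2, gte4 had lower counts of all 4 phragmoplast and cell plate genes and of CDKB2;1, 5 of the 10, where 7.76% of all genes were called lower and 5.77% higher. All 3 gte4 samples lay below all 3 eml1 eml2 samples for these and for CDKB2;2, 6 genes in all, as for 18.6% of all genes. The log2 difference of gte4 from eml1 eml2 was -0.59 for HINKEL (SE 0.109, adjusted p = 0.00514) and -0.45 for PLE (SE 0.0815, adjusted p = 0.00382), and these 2 calls held in all 23 alternatives. It was -0.44 for TES (SE 0.118, adjusted p = 0.0236), -0.42 for KNOLLE (SE 0.102, adjusted p = 0.0160) and -0.24 for CDKB2;1 (SE 0.0719, adjusted p = 0.0369). The Aurora kinases did not pass, with -0.11 for AUR1 (95% interval -0.29 to 0.07) and 0.07 for AUR2 (-0.12 to 0.26). Without gte4 replicate 1, gte4 replicate 2 or eml1 eml2 replicate 2, HINKEL and PLE were the 2 genes still called. TES then had an adjusted p of 0.113, 0.0901 and 0.0827, KNOLLE of 0.0736, 0.0871 and 0.0544, and CDKB2;1 of 0.0678, 0.148 and 0.0610. TES was also lost without eml1 eml2 replicate 3 (adjusted p = 0.0614), and CDKB2;1 without gte4 replicate 3 (adjusted p = 0.0553), eml1 eml2 replicate 1 (adjusted p = 0.0936) or eml1 eml2 replicate 3 (adjusted p = 0.113). Without trend and robust moderation the adjusted p was 0.0538 for TES, 0.0610 for KNOLLE and 0.0736 for CDKB2;1. When the trend of the log2 values with exon length was removed, TES, the longest of the 10 genes at 3607 bases of exon, differed by -0.24 (adjusted p = 0.178, range 0.00704 to 0.178).

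The interaction asks whether the change in the triple mutant equals the sum of the changes in gte4 and in the eml1 eml2 line, and a negative value means that it was smaller than that sum. It was negative for 9 of the 10 genes, with a median of -0.35 beside -0.0070 for all genes, but it passed the test for CDKB2;1 alone (-0.44, SE 0.102, adjusted p = 0.0276), where 1.92% of all genes were called lower and 1.02% higher. An unadjusted p under 0.05 was reached by 7 of the 10 and by 16.6% of all genes. AUR1 had an interaction of -0.45 (adjusted p = 0.0517), AUR2 of -0.43 (adjusted p = 0.0874), HINKEL of -0.50 (adjusted p = 0.108) and PLE of -0.33 (adjusted p = 0.142). KNOLLE had -0.09 (95% interval -0.39 to 0.22) and TES 0.01 (-0.34 to 0.36). It uses the same 3 wild type samples as the comparisons above.

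The CDKB2;1 interaction was called in 13 of 22 alternatives. It was lost without wild type replicate 2 (adjusted p = 0.0646), gte4 replicate 1 (adjusted p = 0.0799), eml1 eml2 replicate 1, 2 or 3 (adjusted p = 0.0616, 0.0527 and 0.0584), or triple mutant replicate 1 or 3 (adjusted p = 0.0687 and 0.0536). It was also lost with equal library totals (adjusted p = 0.0699) and without trend and robust moderation (adjusted p = 0.0792), and the range was 0.0119 to 0.0799. Without wild type replicate 1, HINKEL (-0.64, adjusted p = 0.00783) and PLE (-0.43, adjusted p = 0.0399) were called as well. With a replicate block AUR1 joined CDKB2;1 (adjusted p = 0.0149), with the length trend removed HINKEL did (adjusted p = 0.0201), and with both HINKEL, PLE, AUR1 and AUR2 did (adjusted p = 0.00598, 0.0391, 0.0172 and 0.0450).

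**Figure D4:**
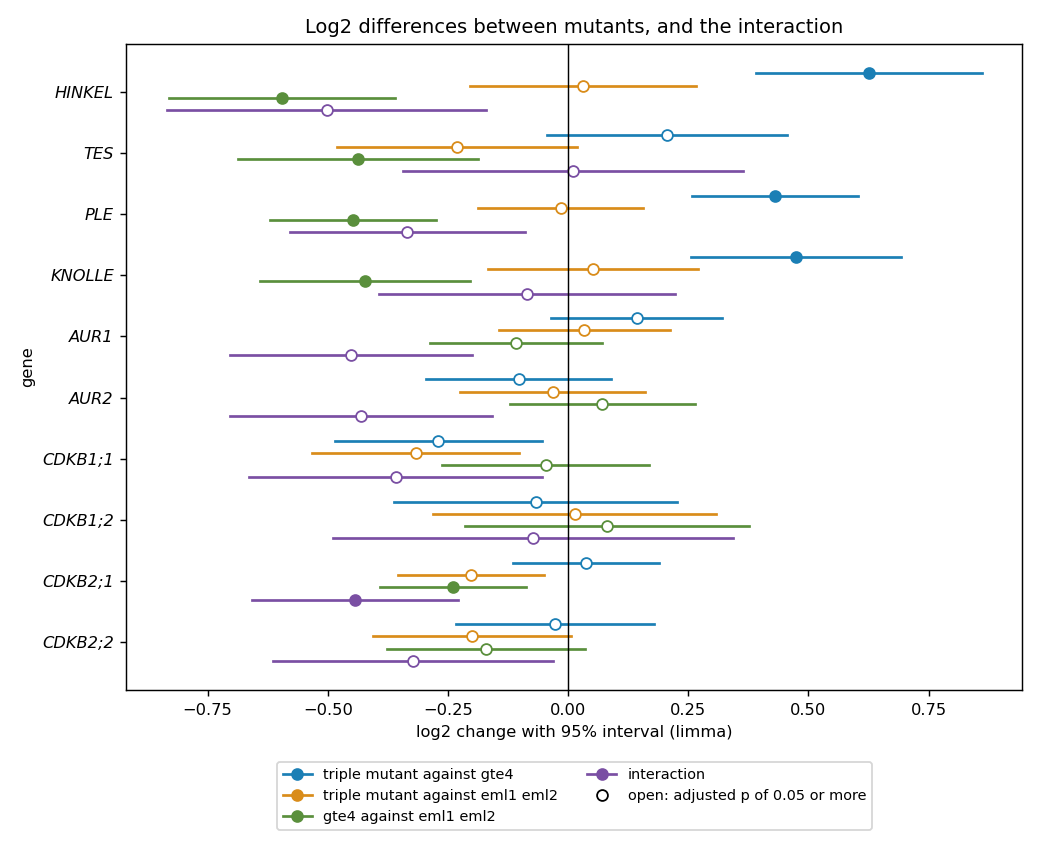
Log2 difference of each gene (horizontal axis) with its 95% interval from limma, for the triple mutant against gte4, the triple mutant against eml1 eml2, gte4 against eml1 eml2, and the interaction; filled points passed an adjusted p of 0.05. HINKEL, PLE and KNOLLE are filled to the right for the triple mutant against gte4 and to the left for gte4 against eml1 eml2, and no gene is filled for the triple mutant against eml1 eml2.

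Other genes of division and DNA replication, 62 in 8 lists, were tested beside the 10 genes. Of the 62, 15 were called higher and 5 lower in gte4, 35 higher and 3 lower in the eml1 eml2 line, and 34 higher and 5 lower in the triple mutant, with median log2 changes of 0.16, 0.41 and 0.40. Of all genes tested, 12.1%, 11.6% and 15.4% were called higher in these 3 comparisons and 13.8%, 12% and 18.2% lower. The counts in each list below stand beside these shares. In the cascade that HINKEL activates and the kinases linked to it, 2 of 8 genes were higher in gte4, and 4 were higher and 1 lower in the eml1 eml2 line. MKK6, a MAP kinase kinase of that cascade, rose by 0.41 in gte4 (adjusted p = 0.00548), 0.59 in the eml1 eml2 line (adjusted p = 0.000421) and 0.64 in the triple mutant (adjusted p = 9.72e-05), and the kinase TIO rose by 0.29, 0.60 and 0.66 (adjusted p = 0.00551, 2.55e-05 and 2.92e-06). MPK4, the MAP kinase below MKK6, went the other way, by -0.25 in the eml1 eml2 line (adjusted p = 0.00790) and -0.29 in the triple mutant (adjusted p = 0.00172), and is named because its values were seen. In the triple mutant 3 of the 8 were higher and MPK4 was the 1 lower.

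Partners of PLE at the phragmoplast and the division plane were higher for 2 of 9 genes in gte4, 8 in the eml1 eml2 line and 7 in the triple mutant, and none was lower. KINESIN-12B, a phragmoplast motor, rose by 0.36, 0.71 and 0.71 in gte4, eml1 eml2 and the triple mutant (adjusted p = 0.00247, 1.03e-05 and 2.90e-06), and TAN1, which marks the division plane, by 0.33, 0.54 and 0.59 (adjusted p = 0.0163, 0.000709 and 0.000153). Partners of KNOLLE in vesicle fusion did not follow it: of 6 genes none was higher in any mutant, 3 were lower in gte4 and 1 in each of the others. In gte4 these were the SNARE gene NPSN11 (-0.35, adjusted p = 0.00351), KEULE, whose product binds KNOLLE (-0.26, adjusted p = 0.0113), and SCD1 (-0.16, adjusted p = 0.0435). SYP71 was the gene lower in the eml1 eml2 line (-0.24, adjusted p = 0.00444) and in the triple mutant (-0.17, adjusted p = 0.0238).

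Of 4 partners of the Aurora kinases, 1 was higher in gte4 and 2 in each of the others, and none was lower. TPX2, which activates Aurora at the spindle, rose by 0.41 in gte4 (adjusted p = 0.00382), 0.91 in the eml1 eml2 line (adjusted p = 7.02e-06) and 0.97 in the triple mutant (adjusted p = 1.05e-06). INCENP, a scaffold of the chromosomal passenger complex, rose by 0.80 in the eml1 eml2 line (adjusted p = 6.25e-05) and 0.78 in the triple mutant (adjusted p = 2.73e-05). Of 10 A1-type and B-type cyclins, 3 were higher in gte4 and 8 in each of the others, and none was lower. CYCB2;4 rose by 0.30, 0.79 and 0.69 (adjusted p = 0.0483, 9.19e-05 and 0.000126). Of 10 partners and inhibitors of cyclin-dependent kinases, none was higher and 1 lower in gte4, 2 were higher and 1 lower in the eml1 eml2 line, and 2 were higher and 2 lower in the triple mutant. The anaphase activator CDC20.1 was higher in the eml1 eml2 line (0.57, adjusted p = 0.00124) and in the triple mutant (0.50, adjusted p = 0.00179), and CCS52A1, linked to endoreduplication, was lower in all 3 mutants (-0.30, -0.24 and -0.29, adjusted p = 0.00777, 0.0333 and 0.00783). Its paralog CCS52A2 went the other way in the triple mutant, where it was called higher (0.41, adjusted p = 0.0120), and CDC20.2 was higher in the eml1 eml2 line (0.42, adjusted p = 0.0339).

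Of 4 MYB3R genes, none was higher and 1 lower in gte4, and 1 was higher and none lower in the eml1 eml2 line. In the triple mutant 1 was higher and 1 lower. The activator MYB3R4 rose by 0.45 in the eml1 eml2 line (adjusted p = 0.000444) and 0.43 in the triple mutant (adjusted p = 0.000282). MYB3R5, which acts as a repressor, fell by 0.54 in gte4 (adjusted p = 0.0235) and by 0.59 in triple mutants (adjusted p = 0.0113). MYB3R1 and MYB3R3 were not called in any mutant. Of 11 DNA replication and S phase genes, 7 were higher in gte4, 10 in the eml1 eml2 line and 11 in the triple mutant. MCM4, a subunit of the replicative helicase, rose by 0.39, 0.60 and 0.62 (adjusted p = 8.76e-05, 2.75e-06 and 4.61e-07). AACGG was in the 300-base window of 26 of the 62 genes, beside 23.43% of all promoters. TTTCCCGC was in 4 of the 62, beside 0.6887% of all promoters.

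**Figure D5:**
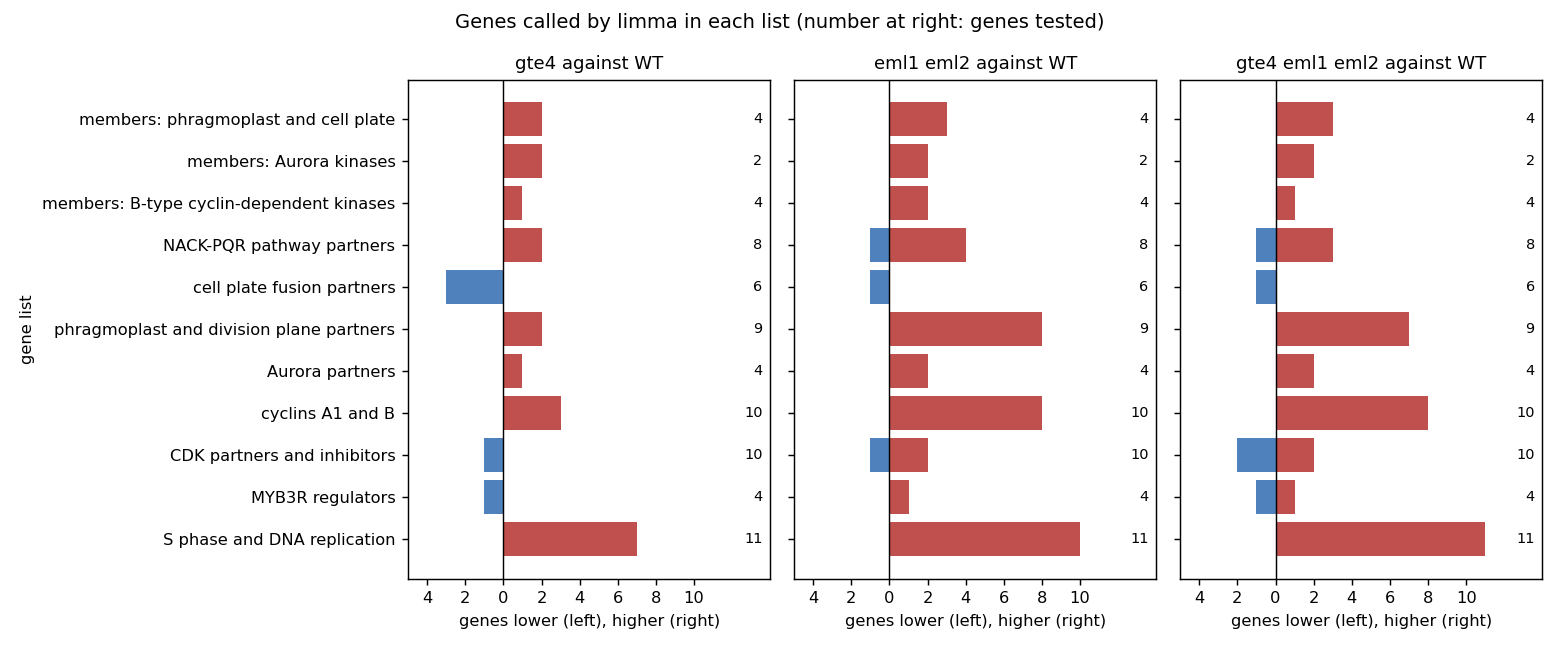
Number of genes called higher (right, red) and lower (left, blue) by limma in each list, in gte4, eml1 eml2 and the triple mutant against wild type (WT); the number at the right of each row is how many genes were tested. The list of S phase and DNA replication goes from 7 of 11 higher in gte4 to 11 of 11 in the triple mutant, while the list of cell plate fusion partners has none higher.

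Markers of flowers and meristems were counted too. Beside them, 12.1%, 11.6% and 15.4% of all genes were called higher in gte4, eml1 eml2 and the triple mutant. Of 11 floral organ identity genes, 6, 8 and 6 were called higher in gte4, eml1 eml2 and the triple mutant, and their summed count was 977 to 1197 in wild type, 1456 to 1458 in gte4, 1606 to 2073 in the eml1 eml2 line and 1487 to 1787 in the triple mutant. Of 12 tapetum and pollen coat genes, 11 could be tested and 4, 7 and 10 were higher, with sums of 343 to 609, 796 to 1128, 1553 to 2179 and 1109.8 to 1475. DYT1, a regulator of tapetum development, was the gene not tested, with a mean of 0.593 over the 12 samples. It was listed at 4.16e-17, or 0 within rounding, in all gte4 samples, which at this level shows no change. Of 12 shoot and floral meristem genes, 11 could be tested and 2, 6 and 3 were higher, with sums of 4775 to 5018, 5068 to 5144, 5569 to 5742 and 5493 to 5747. In gte4 the log2 changes of the tested meristem genes ran from -0.48 to 0.59. For each of these 3 lists the lowest sum in any mutant was above the highest in wild type. How often sums of other genes do so was not tested, and a sum follows its most abundant genes.

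The other 3 marker lists stand for the stomatal lineage, the root and the green leaf. Beside their counts, 12.1%, 11.6% and 15.4% of all genes were called higher in the 3 mutants and 13.8%, 12% and 18.2% lower. In lists this short, counts of 1 to 3 cannot be told from those shares. Of 9 stomatal lineage genes, 2 were higher and 1 lower in gte4 and in the eml1 eml2 line, and 3 were higher in the triple mutant, with sums of 2630.4 to 2899, 2656 to 2853, 2790.02 to 3159 and 2890.1 to 3276. Of 7 root genes, 5 could be tested and 1 was higher in each mutant. Sums of the 7 were 1225 to 1408, 1373 to 1598, 1409.8 to 1562 and 1399 to 1424. PLT1 and PLT2 were not tested, with means of 0.176 and 0.190 over the 12 samples. They were likewise listed at 4.16e-17 in every sample of wild type, gte4 and eml1 eml2. The 4 green leaf genes summed to 940991 to 1140883 in wild type, 1061900.5 to 1119203 in gte4, 1000618 to 1046026 in eml1 eml2 and 894005 to 1043351 in the triple mutant, and 1 of them was higher in each mutant, with 1 lower in the eml1 eml2 line and 2 in the triple mutant. The part that any of these tissues had in the changes of the 10 genes was not tested.

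The replicates of a genotype did not spread evenly over these genes. Wild type replicate 2 was the lowest of its group for 8 of the 10 genes, triple mutant replicate 1 for 8, and triple mutant replicate 2 was the highest for 9. The mean profile of the 10 genes, each centred on its own log2 mean, ran from -0.38 in wild type replicate 2 to 0.24 in the eml1 eml2 line replicate 2. Among 16728 other genes with a mean of at least 50, those closest to this profile by root mean square difference over the 12 samples were AT1G52700 (0.0572), AT4G02800 (0.0601), ANT (AT4G37750, 0.0608), AT5G64420 (0.0626) and AT5G27550 (0.0639). The median over all these genes was 0.242, and a flat profile would give 0.179. ANT encodes a transcription factor that promotes organ growth and is 1 of the meristem markers above, and the other 4 have no name in RefSeq.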

How the data were processed

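Total RNA extracted with TRIzol was sequenced as 150-bp paired-end reads on an Illumina NovaSeq instrument, per the labels' protocols. The submitters' processing notes name bcl2fastq, HISAT2, edgeR and the build TAIR10, without versions or roles. The counting program, annotation and strand setting are not given in the sources used here. The deposited signal values are read counts that the authors had normalized: they are fractional, their totals are nearly equal, and whole reads could not be recovered, so depth is unknown and counting error cannot be given. The plan held 1 test for raw counts and limma for other units, and limma was used.

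Values were transformed as log2(value + 1), so fold changes of low genes are understated. The 22315 genes (of 32548) whose mean reached 1 were tested. The model, in limma 3.58.1 (R 4.3.3), held the 4 genotypes as separate coefficients over 12 samples and used eBayes with its trend and robust options; it was tested on simulated data. Benjamini-Hochberg adjustment was taken within each of 7 comparisons, and every adjusted p without another name comes from limma. The members, gene lists and naming rule were chosen with earlier results of these data known. The rule names all 10 genes, GTE4, EML1, EML2, up to 3 called genes per list and comparison with wild type (those of smallest adjusted p, of which a selection is printed), and the 5 genes closest to the mean profile. Of the 23 alternatives, 12 leave out 1 sample each. Where that sample is of a genotype outside a comparison, the log2 change stays as it was and just the error alters. Such fits are a weak check.

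Gene names, exon lengths and sequences come from RefSeq TAIR10.1, in which 32548 of 32548 IDs were found by locus tag. The deposited table holds no coordinates, and none were moved between builds. Transcript pairs were aligned with Biopython 1.88. Sample numbers were checked as pairs by correlating same-numbered deviations from genotype means over the tested genes. Over these 22315 genes 1 of 6 genotype pairs, eml1 eml2 with the triple mutant, had all 3 correlations above 0.1 (0.182 to 0.217), and 12 of 12 samples correlated best with one of their own number. Over the 16738 genes with a mean of at least 50, wild type with gte4 (0.262 to 0.506) and with eml1 eml2 (0.121 to 0.576), gte4 with eml1 eml2 (0.177 to 0.624) and eml1 eml2 with the triple mutant (0.131 to 0.595) did, the other 2 pairs did not, and 10 samples matched their own number best. The labels do not say what a number stands for.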

Additional observations from a re-analysis of the deposited data

Results flagged for a closer look

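CDKB2;1 gave an interaction of -0.44 on the log2 scale (limma, SE 0.102, adjusted p = 0.0276): its change in the triple mutant was smaller than the sum of its changes in gte4 and the line labelled eml1 eml2. The counts behind it were 683 ± 38.5 in wild type, 807 ± 30.5 in gte4, 953 ± 37.9 in that line and 829.9 ± 68.6 in the triple mutant (SD, n = 3). It was called in 13 of 22 alternatives, with an adjusted p between 0.0119 and 0.0799. AT1G76530, which overlaps 3.219% of the CDKB2;1 exon bases on the opposite strand, was lower than wild type in all 3 mutants. Its log2 change was -2.85 in gte4, -1.71 in the eml1 eml2 line and -2.14 in the triple mutant (limma adjusted p = 0.000193, 0.00885 and 0.00117). Its interaction was 2.43 (limma adjusted p = 0.0430), so the fall in the triple mutant was smaller than the sum of the other falls.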

How the results depend on the processing

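Over all single results of the 10 genes, 1545 of 1600 recomputed values stayed on the same side of the threshold, 44 calls were lost and 11 were gained. These include fits without a sample of a genotype outside the comparison, which cannot move the log2 change. None of 620 values recomputed for a called result changed sign, and 44 of 980 did for results that were not called, whose log2 change with all samples and main settings was at most 0.12 in size. Leaving out 1 sample at a time gave 4 to 6 genes called in gte4 against wild type, 5 to 7 in eml1 eml2, 5 to 7 in the triple mutant, 2 to 4 for the triple mutant against gte4, 0 to 0 against eml1 eml2, 2 to 5 for gte4 against eml1 eml2, and 0 to 3 for the interaction. Without trend and robust moderation, gte4 against eml1 eml2 had 2 genes called and the interaction 0. The interaction also had 0 with equal library totals, 2 with a replicate block, 2 with the length trend removed and 5 with both. The block changed no other count of the 10 genes.

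Over all genes, leaving out 1 sample gave 4275 to 5791 calls in gte4 (5780 with all samples), 3756 to 5500 in eml1 eml2 (5271) and 6067 to 7673 in the triple mutant (7495). For the triple mutant against gte4 it gave 271, without gte4 replicate 2, to 3023 (2131), for the triple mutant against eml1 eml2 131 to 449 (370), for gte4 against eml1 eml2 877, without gte4 replicate 2, to 3723 (3019), and for the interaction 261 to 701 (655). Without trend and robust moderation these last 4 gave 393, 199, 1491 and 245 calls. The replicate block gave 3358 for the triple mutant against gte4, 682 against eml1 eml2 and 1269 for the interaction, and with the length trend also removed 832 against eml1 eml2 and 1462 for the interaction. Removing the length trend alone gave 514 for the triple mutant against gte4 and 1493 for gte4 against eml1 eml2. The cause of these shifts was not tested. With 3 samples a group, changes as small as those of CDKB1;2 lie within the error. A fit of only the genotypes compared could not be made for the interaction.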
